A study of Mus musculus with 12 samples.

Results

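Small intestine of Zip4 knockout mice was compared between 2 forms of organically bound zinc, with the metal held at the hydroxy end of the complex in 2 mice and at the amino end in the other 2. These 4 libraries, of 12 in the series, were taken by their labels. Zip4 is the protein of Slc39a4. All 12 mice were C57BL/6 and RNA came from the frozen whole small intestine, with 1 library per mouse. The knockout (KO) mice on the amino complex were 198 and 228 days old and those on the hydroxy complex 237 and 240 days, all labelled as fed 40 ppm zinc. Both hydroxy mice were thus older than both amino mice, so age and complex cannot be told apart here. Wild type (WT) and heterozygous (HET) mice, 2 per complex, were labelled as fed 15 ppm. They served to place the KO values, entered the estimate of spread behind each test and were used in contrasts between genotypes. WT mice were 210 and 218 days old on amino and 237 and 221 days on hydroxy, and HET mice 363 and 141 days on amino and 338 and 143 days on hydroxy. The text on the whole series gives 15 ppm for every group, against the sample labels. How the Zip4 allele was made, and in which cells it was lost, is not stated in the labels. Libraries are named by group and number, such as KO hydroxy 2, and a number pairs nothing across groups.

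Zip4 carries zinc from the gut lumen into the enterocyte, the absorptive cell of the villus. Complexes of zinc with an organic ligand are used as feed supplements, and the series asks whether the end that binds zinc matters when this importer is missing. The 2 systems that read amino acid supply and recur in the results are mTORC1 and ATF4. The kinase complex mTORC1 promotes ribosome making and growth when amino acids are plentiful. The transcription factor ATF4 acts when amino acids run short or proteins misfold, and drives genes for amino acid synthesis, amino acid uptake and the charging of tRNA.

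In the KO mice, most members of the lists for tRNA charging, ribosome assembly, DNA replication and B cells stood higher in both hydroxy libraries than in either amino library. Mitosis and interferon-stimulated genes had medians above 0, but the 2 sides overlapped in many members. Absorptive enterocyte genes and matrix genes of fibroblasts had medians below 0. The single gene furthest apart by p was Gatsl2, whose protein belongs to a family of arginine sensors, at 31.8 and 28.7 CPM (a gene's reads relative to all reads of its library) in amino against 8.097 and 5.89 CPM in hydroxy. No gene passed an adjusted p of 0.05 among the 14001 tested by limma on log2(CPM + 1), and the smallest adjusted p was 0.159. Without adjustment for the number of tests, 1921 genes (13.7%) had p under 0.05, 1362 of them higher in hydroxy (9.73%) and 559 lower (3.99%). The same contrast gave 144 genes (1.03%) in WT and 375 (2.68%) in HET, with 0 past the adjusted threshold in either. Without KO hydroxy 2 the count in KO was 623 and without KO hydroxy 1 it was 2544, and it was 1390 without KO amino 1 and 676 without KO amino 2. The statements on genes and lists that follow are therefore values and counts, and no single gene is called. With 2 libraries a side, an exact two-sided permutation test cannot give a p below 0.333.

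Several facts about the 4 libraries bear on all of these values. They held 32.0 to 34.2 M reads, so that 3 reads equal 0.0878 to 0.0936 CPM. Slc39a4 itself stood at 90.1 and 91.6 CPM in KO amino against 41.98 and 64.8 CPM in KO hydroxy, below the 117 to 267 CPM of the 8 WT and HET libraries, and reads of the targeted gene thus remained in every KO library (log2 change -0.79, SE 0.39, adjusted p = 0.4101). Xist, the RNA of the inactive X chromosome in females, was at 244 CPM in KO amino 1, labelled male, where the Y-linked genes Ddx3y, Eif2s3y, Kdm5d and Uty were all at 0. In KO amino 2, labelled female, Xist was at 0.155 CPM and Ddx3y at 32.2 CPM, and both hydroxy libraries, labelled male, held Y-linked reads. The amino side therefore holds 1 library of female pattern and the hydroxy side none. Sex label and reads disagreed in both amino libraries. Whether these 2 libraries were exchanged, and their ages with them, was not tested. Of all genes tested, 56.1% had a log2 change above 0, with a median of 0.07. The same median was 0.10 in WT and 0.01 in HET.

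Long transcripts stood low and short ones high in both hydroxy libraries. With the genes cut into 5 classes of equal size by transcript length, taken from GENCODE M21, the median log2 change in KO was 0.34 in the shortest class, 0.18, 0.08 and -0.04 in the next ones and -0.22 in the longest. The median deviation from the mean of 12 libraries ran from 0.18 to -0.38 in KO hydroxy 1 and from 0.48 to -0.20 in KO hydroxy 2, while it ran from -0.03 to -0.05 in KO amino 1 and from -0.05 to -0.09 in KO amino 2. The trend was also seen outside the KO mice. HET amino 2 ran the other way, from -0.51 to 0.30, and the rank correlation of the change with length across 13936 genes was -0.44 in KO, -0.52 in HET and 0.02 in WT, a description only since genes share libraries. Malat1, a long RNA that stays in the nucleus, stood at 349 and 299 CPM in KO amino against 55.6 and 39.5 CPM in KO hydroxy, and Neat1, another one, at 684 and 529 against 218 and 246 CPM. WT hydroxy 1 was also low for Malat1, at 98.5 CPM. Of other noncoding RNAs looked at with them, Meg3 and Kcnq1ot1 were lower in both hydroxy libraries. The sides overlapped for Rian and Gas5, and Snhg1 was higher in both hydroxy libraries. The length trend of each library was removed by a smooth curve as an alternative, and the medians of the main lists and the change of many genes below are given also in that form. After that step 849 genes (6.09%) had p under 0.05 higher and 463 (3.32%) lower, and 0 passed the adjusted threshold. The log2 change of Malat1 was then -2.54, against -2.76 as fitted, and that of Neat1 -0.80, against -1.37.

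**Figure D1:**
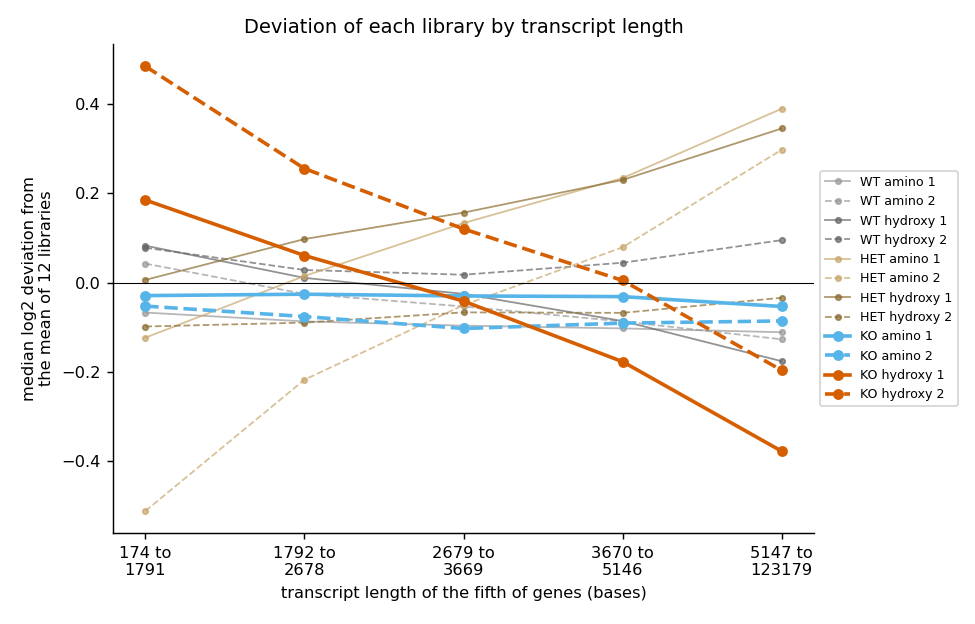
Median log2 deviation of each library from the mean of the 12 libraries (vertical axis) in 5 equal classes of the genes by transcript length in bases (horizontal axis). The lines of KO hydroxy 1 and 2 slope down from 0.18 and 0.48 to -0.38 and -0.20, and those of KO amino 1 and 2 are nearly level.

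Gatsl2 (chr5:134099748-134141759 in mm10, plus strand) is the mouse gene for CASTOR2, a relative of the arginine sensor CASTOR1, which in human cells holds mTORC1 in check when arginine is scarce. Its level was 31.8 and 28.7 CPM in KO amino against 8.097 and 5.89 CPM in KO hydroxy, with libraries 1 and 2 of each group in that order here and below. Both hydroxy libraries were under the 22.2 to 38.7 CPM of the 8 WT and HET libraries, and both amino libraries were within that range. The fitted difference was -1.98 on the log2 scale (SE 0.25, adjusted p = 0.159) and -1.75 with the length trend removed. In WT the change by complex was -0.29 and in HET -0.12. Lrp12 (chr15:39870602-39943995, minus strand), a membrane protein of the low-density lipoprotein receptor family, showed the same layout. Its level was 36.4 and 26.8 CPM in KO amino against 9.99 and 7.89 CPM in KO hydroxy, with 30.4 to 51.9 CPM in the other 8 libraries (log2 change -1.71, SE 0.25, adjusted p = 0.286, and -1.69 with the length trend removed). Psat1 (chr19:15905123-15925060, minus strand), the aminotransferase of serine synthesis, went the other way. It was at 9.59 and 4.89 CPM in KO amino against 18.98 and 42.4 CPM in KO hydroxy, and the 8 others spanned 6.21 to 12.8 CPM (log2 change 1.90, SE 0.44, adjusted p = 0.3004, and 1.75 with the length trend removed). KO hydroxy 2 held the higher level of its pair, and both were above every other library.

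**Figure D2:**
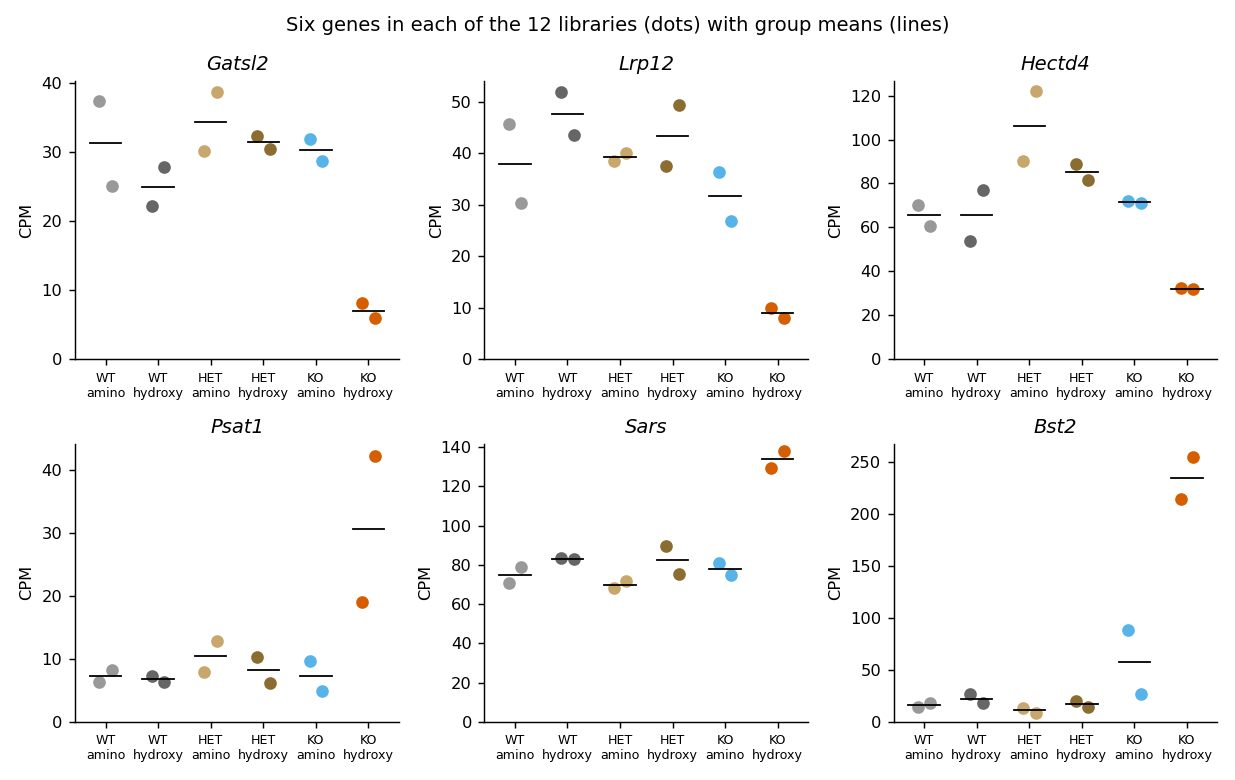
CPM (vertical axis, from 0) of Gatsl2, Lrp12, Hectd4, Psat1, Sars and Bst2 in the 2 libraries of each of 6 groups, a dot per library and a line at the group mean. For each gene both KO hydroxy libraries lie outside the range of the other 10 libraries, as with Gatsl2 at 8.097 and 5.89 CPM.

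Of the genes whose mean level reached the median of all genes, the 12 with the smallest p in each direction and no overlap between the sides were taken next. The 12 that stood higher in hydroxy were Sars, H2-Q10, Cops5, Bst2, Anxa13, Taf9, Dus1l, Pgp, Ccng1, Nol7, Srp19 and Slc12a8. Sars, the seryl-tRNA synthetase, was tightly grouped at 81.01 and 74.9 CPM in KO amino against 129.5 and 138 CPM in KO hydroxy (log2 change 0.77, SE 0.15). H2-Q10, a secreted class I molecule of the major histocompatibility complex, was at 25.3 and 26.1 CPM in KO amino against 68.5 and 51.8 CPM in KO hydroxy, while the 8 WT and HET libraries lay at 3.23 to 6.401 CPM. All 4 KO libraries were thus above the others, and the hydroxy pair highest (log2 change 1.18, SE 0.23). H2-Q10 was also higher in hydroxy in WT, at 3.23 and 3.48 CPM in amino against 6.40 and 5.45 CPM in hydroxy. Its change was 0.67 in WT and 0.12 in HET. Bst2, the interferon-induced tetherin that holds viruses at the cell surface, was at 88.1 and 26.8 CPM in KO amino against 215 and 255 CPM in KO hydroxy (log2 change 2.24, SE 0.47). Cops5, the protease subunit of the COP9 signalosome, stood at 45.3 and 39.6 against 68.6 and 81.6 CPM, amino first. Ccng1, a cyclin induced by p53, stood at 64.99 and 53.7 against 91.8 and 129 CPM, and Anxa13, an annexin of the intestinal epithelium, at 239 and 198 against 480.3 and 373 CPM. The change of Anxa13 had the same sign in WT, 0.30, and in HET, 0.48. Each of the 12 had an adjusted p of 0.3004, and their sides are apart by the rule that chose them. With the length trend removed, the change of Anxa13 went from 0.96 to 0.58, with an unadjusted p of 0.0921 by limma. That of Cops5 went from 0.81 to 0.52, of Nol7 from 0.72 to 0.45 and of Srp19 from 1.03 to 0.62. The change of Sars was then 0.72, of H2-Q10 0.94 and of Bst2 1.82. Reads of H2-Q10 could be shared with its close H2-Q relatives.

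The 12 that stood lower were Gatsl2 and Lrp12, then Zbed6, Zmiz1, Abca3, Trak1, Hectd4, Pipox, Nfat5, Unc5b, Hipk2 and Kif21b. Hectd4, a large ubiquitin ligase, was the most even of them, at 71.98 and 71.1 CPM in KO amino against 32.1 and 31.7 CPM in KO hydroxy (log2 change -1.14, SE 0.21). Nfat5, the transcription factor of the response to high salt, stood at 61.6 and 74.3 CPM in KO amino against 23.96 and 22.9 CPM in KO hydroxy (log2 change -1.49, SE 0.29). Zmiz1, a coregulator of transcription, stood at 137 and 131 against 65.4 and 50.4 CPM, and Hipk2, a nuclear kinase, at 26.04 and 23.9 against 9.78 and 5.402 CPM. The sides of all 12 genes are apart by the rule that chose them. Transcript length split the 2 sets: the median was 1946 bases in the set that stood higher and 6922 bases in the set that stood lower. With the trend removed, the change of Hectd4, with a transcript of 15482 bases, went from -1.14 to -0.66 and that of Nfat5 from -1.49 to -1.06. Pipox, the peroxisomal oxidase of pipecolate and sarcosine, has a transcript of only 1998 bases and stood at 23.9 and 23.2 CPM in KO amino against 10.05 and 7.14 CPM in KO hydroxy, a change of -1.37 and of -1.61 with the trend removed. Zbed6 lies inside an intron of Zc3h11a, and reads of the pair cannot be told apart here (26.2 and 20.9 against 8.16 and 5.39 CPM).

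Enzymes that charge transfer RNA with amino acids stood higher as a group. All 20 cytosolic aminoacyl-tRNA synthetases tested were higher in both hydroxy libraries than in either amino library. That held for 28.8% of all genes (4037), while 16.8% (2348) were lower in both. In WT the shares of all genes were 19.6% and 5.48%, and in HET 13.3% and 8.16%. Of the 20, 15 had an unadjusted p under 0.05, against 9.73% of all genes, and 14 had the hydroxy pair above the other 10 libraries, against 13.8% of all genes. The median log2 change was 0.76, from 0.38 to 1.02, beside 0.07 for all genes, and 0.60 with the length trend removed. In WT the median of these genes was 0.02 and in HET 0.11. The enzyme for glycine, Gars, stood at 67.9 and 47.8 CPM in KO amino against 105 and 129 CPM in KO hydroxy. The enzyme for histidine, Hars, stood at 34.2 and 32.5 against 50.9 and 66.2 CPM, that for arginine, Rars, at 66.95 and 50.6 against 102 and 102 CPM and that for leucine, Lars, at 29.8 and 22.2 against 38.2 and 51.3 CPM. KO amino 2 was the lowest of the 4 libraries over the list, with a median deviation of -0.33, against 0.02 in KO amino 1, 0.44 in KO hydroxy 1 and 0.68 in KO hydroxy 2. Without KO amino 2 the list's median was 0.54 and 2 members had p under 0.05, and without KO hydroxy 2 the median was 0.57 and 5 had. The count was 11 with the length trend removed.

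**Figure D3:**
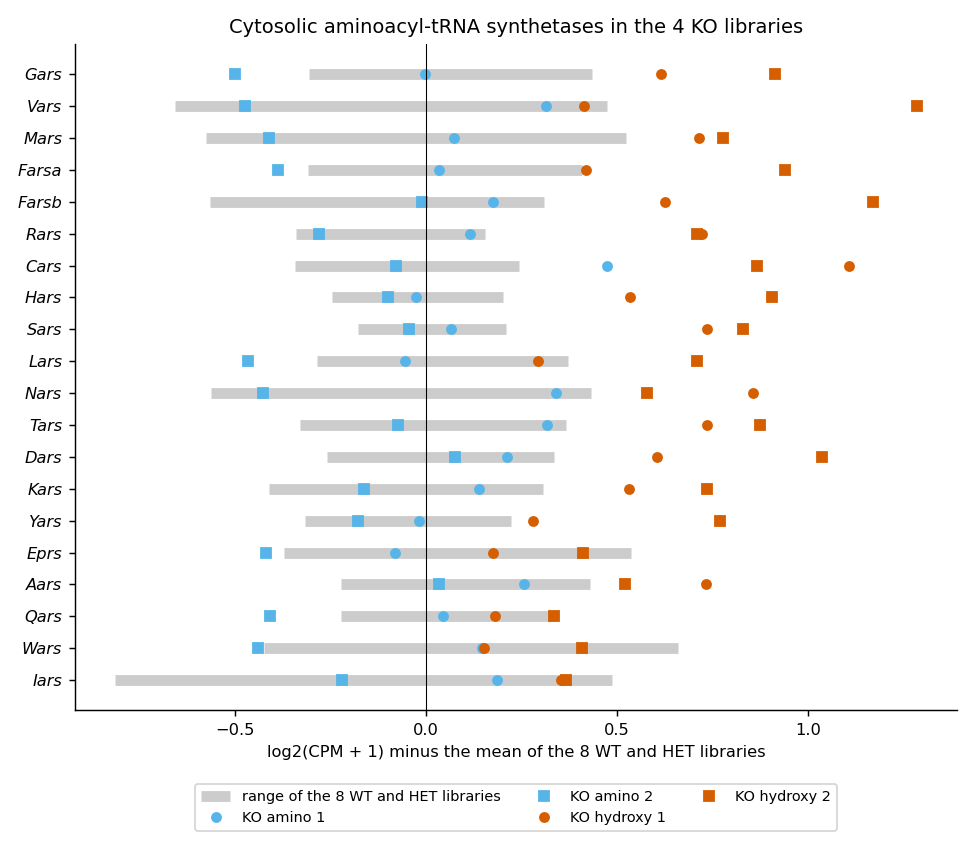
Level of the 20 cytosolic aminoacyl-tRNA synthetase genes in the 4 KO libraries, as log2(CPM + 1) minus the mean of the 8 WT and HET libraries (horizontal axis), with grey bars for the range of those 8. In each gene both hydroxy points lie to the right of both amino points, and in 14 genes they also lie outside the grey bar and past KO amino.

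The broader set of ATF4 targets of the amino acid response shares 7 of its 41 members with the synthetases. Of the 41, 36 had a change above 0 (56.1% of all genes), with a median of 0.52. An unadjusted p under 0.05 by limma was reached by 15 higher and 0 lower, against 9.73% and 3.99% of all genes. Without overlap, 24 were higher and 2 lower, against 28.8% and 16.8% of all genes. The median was 0.43 with the length trend removed. Without KO amino 2 the count of 15 was 5, and without KO hydroxy 2 it was 8. Psat1 was first by p after Sars, followed by Mthfd2, the mitochondrial enzyme of one-carbon metabolism, at 11.5 and 7.09 CPM in KO amino against 21.9 and 26.6 CPM in KO hydroxy (log2 change 1.32, SE 0.33). Chac1, which breaks down glutathione, stood at 4.12 and 0.682 CPM in KO amino against 15.1 and 6.14 CPM in KO hydroxy (log2 change 1.87, SE 0.53), with KO hydroxy 1 the higher of its pair. Asns, which makes asparagine, stood at 21.3 and 12.6 CPM in KO amino against 41.2 and 42.9 CPM in KO hydroxy. The enzymes flanking Psat1 in serine synthesis were less even: Phgdh stood at 2.66 and 2.73 against 2.67 and 14.4 CPM, high only in KO hydroxy 2, and Psph at 7.78 and 5.98 against 11.995 and 20.1 CPM. In 3 other targets, named next, the sides overlapped. Slc3a2, a chain of amino acid exchangers, stood at 346 and 323 against 382 and 298 CPM, Trib3, an inhibitor of ATF4 that is itself a target, at 14.3 and 26.5 against 24.02 and 21.7 CPM, and Sesn2 at 6.695 and 4.65 against 6.48 and 5.42 CPM. The mRNA of Atf4 stood at 167 and 119.6 against 202 and 192 CPM. Asns and the genes after it were picked after their values were seen.

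Promoter sequence is shown for the 4 of these genes with the smallest p among those whose window holds the letters TGATGNAA. These letters are one form of the composite element bound by ATF4 with C/EBP partners. The windows span 250 bases before to 50 after the RefSeq start in GRCm38.p6, with capitals on the match of either strand. They are Gars (chr6:55037751-55038050, plus strand), Chac1 (chr2:119350992-119351291, plus), Asns (chr6:7693160-7693459, minus) and Slc7a11 (chr3:50443564-50443863, minus), each printed 5′ to 3′ on the strand of its gene.
Gars: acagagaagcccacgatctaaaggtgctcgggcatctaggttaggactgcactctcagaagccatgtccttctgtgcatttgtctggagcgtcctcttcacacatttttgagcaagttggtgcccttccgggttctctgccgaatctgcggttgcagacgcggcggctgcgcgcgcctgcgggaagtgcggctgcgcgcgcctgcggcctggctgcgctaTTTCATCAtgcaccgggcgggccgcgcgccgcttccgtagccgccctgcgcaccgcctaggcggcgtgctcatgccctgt
Chac1: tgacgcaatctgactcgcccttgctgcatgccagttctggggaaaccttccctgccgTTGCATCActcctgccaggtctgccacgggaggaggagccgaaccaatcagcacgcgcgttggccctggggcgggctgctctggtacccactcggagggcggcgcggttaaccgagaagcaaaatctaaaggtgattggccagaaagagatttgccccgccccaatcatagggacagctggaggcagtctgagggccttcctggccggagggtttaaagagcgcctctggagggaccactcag
Asns: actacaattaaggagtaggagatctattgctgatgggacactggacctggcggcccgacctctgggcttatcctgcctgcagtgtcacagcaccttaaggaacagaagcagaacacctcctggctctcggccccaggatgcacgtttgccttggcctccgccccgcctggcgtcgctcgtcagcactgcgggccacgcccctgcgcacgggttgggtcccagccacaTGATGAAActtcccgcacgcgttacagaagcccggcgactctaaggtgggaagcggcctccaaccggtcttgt
Slc7a11: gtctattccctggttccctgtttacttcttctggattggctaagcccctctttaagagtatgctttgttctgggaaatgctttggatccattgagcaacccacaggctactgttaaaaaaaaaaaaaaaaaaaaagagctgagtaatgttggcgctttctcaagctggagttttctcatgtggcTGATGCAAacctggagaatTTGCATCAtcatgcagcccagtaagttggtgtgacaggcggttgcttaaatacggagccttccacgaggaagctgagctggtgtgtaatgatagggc
The letters were found in 10 of the 34 ATF4 targets with a window (29.4%) and in 5 of 13 synthetase genes with a window (38.5%). Of all 27025 genes with a window 4.51% held them, and of all 32851 windows 3.97%. Members of the first list were chosen as ATF4 targets, so a high share there was likely in advance. The synthetase list shares 7 members with it, and Aars and Gars hold a match in both. The share of all genes covers every gene with a window, tested here or not. Slc7a11, the cystine importer, holds a match on each strand and was at 0.175 and 0.403 CPM in KO amino against 1.68 and 3.55 CPM in KO hydroxy, close to the level of 3 reads in amino. A match describes the letters and shows no binding. Gars and Asns, each with 1 match, stood at 105 and 129 CPM and 41.2 and 42.9 CPM in the hydroxy libraries, above both amino libraries. The 4 genes shown were picked by small p, so such a difference followed from the choice. Trib3, Pycr1, Atf3, Vldlr and Nupr1 also hold a match, and the changes of these 5 ran from -0.57 for Nupr1 to 0.22 for Trib3.

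Sensors of amino acids upstream of mTORC1 had no common direction. The 38 members tested had a median of 0.05, with 23 above 0, 1 with p under 0.05 higher and 4 lower, against 56.1%, 9.73% and 3.99% of all genes. With the length trend removed the median was -0.02, with 0 and 2 past that p. Gatsl2 was far below all others. Its relative Gatsl3, the gene of CASTOR1, was low and level at 1.17 and 2.23 against 1.41 and 2.09 CPM. Rptor, the subunit of mTORC1 that binds substrates, stood at 36.7 and 33.1 against 26.6 and 26.2 CPM and Fnip1, a partner of folliculin, at 52.8 and 47.6 against 34.8 and 31.3 CPM. Among the short transcripts of the Ragulator anchor, Lamtor5 stood at 14.1 and 15.96 against 21.02 and 25.3 CPM, with a change of 0.59 that was 0.18 with the trend removed.

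Carriers of amino acids and peptides leaned the other way from the synthetases. Of 23 tested, 8 were above 0 and the median was -0.14. In HET 7 of the 23 were above 0 with a median of -0.13, and in WT 11 with a median of -0.02. In KO an unadjusted p under 0.05 by limma was reached by 1 higher and 3 lower, against 9.73% and 3.99% of all genes. Lower in both KO hydroxy libraries were 9 of the 23, against 16.8% of all genes, and higher in both were 2, against 28.8%. With the length trend removed the median was -0.32. Slc36a1, which takes up small neutral amino acids with protons, stood at 157 and 266 CPM in KO amino against 83.5 and 61.03 CPM in KO hydroxy (log2 change -1.50, SE 0.38). Its change in WT, -1.07, had the same sign, and in HET it was 0.13. Slc6a6, the taurine carrier, stood at 166 and 170.4 CPM in KO amino against 115 and 83.7 CPM in KO hydroxy (log2 change -0.77, SE 0.19). The basolateral carrier Slc43a2 stood at 648 and 476 against 330.1 and 177 CPM, and Slc15a1, the brush border importer of dipeptides and tripeptides, at 475 and 415 against 265 and 172 CPM. In WT the changes were -0.02 for Slc6a6, -0.62 for Slc43a2 and -0.53 for Slc15a1. The exception by p was Slc7a5, the exchanger of large neutral amino acids and an ATF4 target, at 7.19 and 5.48 CPM in KO amino against 12.5 and 14.6 CPM in KO hydroxy (log2 change 0.99, SE 0.36).

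Genes of the absorptive enterocyte were lower over most of the list. Of 44 tested, 39 were below 0, 7 had p under 0.05 lower (3.99% of all genes) and 0 higher, 20 lay lower in both hydroxy libraries (16.8% of all genes), and the median was -0.57. It was -0.62 with the length trend removed, and 1 member then had p under 0.05 lower. In WT the median of the list was -0.19, with 10 above 0, and in HET 0.03, with 24 above 0. Lct, the lactase, stood at 1475 and 1962 CPM in KO amino against 725 and 454 CPM in KO hydroxy (log2 change -1.57, SE 0.46). Ace, the brush border peptidase known as angiotensin-converting enzyme, stood at 1685 and 2065 against 1032 and 664 CPM, Mgam, the maltase, at 1721 and 2521 against 1146 and 816 CPM and the glucose carrier Slc2a2 at 294 and 526 against 277 and 177 CPM. The change of Slc2a2 was -0.83 in KO and -0.91 in WT. The WT change was -0.18 for Lct, 0.02 for Ace and -0.59 for Mgam. Cubn, the receptor for cobalamin uptake in the ileum, stood at 238 and 102 CPM in KO amino against 42.1 and 46.005 CPM in KO hydroxy (log2 change -1.80, SE 0.74, and 0.29 in WT). This group rested on 1 library more than the previous ones. The median deviation was 0.19 and 0.18 in amino, 0.03 in KO hydroxy 1 and -0.63 in KO hydroxy 2, and without KO hydroxy 2 the list's median was -0.15 and 0 members had p under 0.05. The summed level of the list was 70785 and 85589 CPM in amino and 75822 and 49649.9 CPM in hydroxy. Fewer cells of a type and less RNA per cell cannot be told apart in whole tissue. Apoa1, an apolipoprotein these cells secrete, stood at 8070.5 and 6493 against 9690.4 and 6949 CPM and Mttp, the loader of lipid onto lipoproteins, at 2518 and 2638 against 3687 and 2047 CPM, with the sides overlapping in both.

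Genes of dividing cells stood higher, mostly in KO hydroxy 2. All 42 DNA replication genes and all 45 mitosis genes had a change above 0, with medians of 0.74 and 0.84, and of 0.60 and 0.78 with the length trend removed. An unadjusted p under 0.05 was reached by 23 and 17 of them, against 9.73% of all genes, and 33 and 24 were higher in both hydroxy libraries, against 28.8%. In WT 36 and 40 of these genes were above 0, with medians of 0.14 and 0.17. In HET 25 and 8 were, with medians of 0.05 and -0.23. Mcm2, a subunit of the replicative helicase, stood at 22.7 and 17.6 CPM in KO amino against 33.3 and 58.1 CPM in KO hydroxy (log2 change 1.10, SE 0.31). Pcna, the sliding clamp of DNA polymerase, stood at 27.9 and 22.99 against 39.2 and 59.7 CPM and Rrm2, which makes deoxynucleotides, at 16.3 and 8.98 against 20.5 and 36.4 CPM. Cenpa, the histone of the centromere, stood at 16.2 and 12.2 CPM in KO amino against 24.1 and 44.2 CPM in KO hydroxy (log2 change 1.16, SE 0.34), and Ccna2, the cyclin of S phase and mitosis, at 37.2 and 28.97 against 52.4 and 103 CPM. The median deviation of the replication genes was 0.06 and -0.33 in amino and 0.24 and 1.09 in hydroxy. KO hydroxy 1 was thus close to KO amino 1, and without KO hydroxy 2 the median change was 0.36 for replication and 0.40 for mitosis, with 0 members of p under 0.05 in either. Without KO amino 2 the counts were 2 and 0. Of 19 intestinal stem cell markers, 14 were above 0 (56.1% of all genes), with a median of 0.36 (0.25 with the length trend removed). Without KO hydroxy 2 that median was -0.06, and in WT it was 0.27 and in HET -0.31. Olfm4, a marker of the crypt base, stood at 533 and 418 CPM in KO amino against 886 and 1042 CPM in KO hydroxy. Lgr5, the defining stem cell receptor, went the other way, at 4.77 and 4.93 against 2.61 and 3.12 CPM.

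Promoters are shown for the 2 replication genes with the smallest p among those holding the letters TTTCCCGC or TTTGGCGC on either strand. These letters are forms of the element bound by E2F factors at the start of S phase. The windows are Mcm7 (chr5:138171834-138172133, minus strand) and Mcm3 (chr1:20820263-20820562, minus strand), from RefSeq on GRCm38.p6 with the same span, and capitals mark the matches.
Mcm7: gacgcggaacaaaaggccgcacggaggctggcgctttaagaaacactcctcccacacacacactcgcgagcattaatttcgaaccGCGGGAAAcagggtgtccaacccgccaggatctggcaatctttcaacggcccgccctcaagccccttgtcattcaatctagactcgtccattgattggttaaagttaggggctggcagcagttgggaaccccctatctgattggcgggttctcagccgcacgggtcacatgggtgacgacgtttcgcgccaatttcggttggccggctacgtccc
Mcm3: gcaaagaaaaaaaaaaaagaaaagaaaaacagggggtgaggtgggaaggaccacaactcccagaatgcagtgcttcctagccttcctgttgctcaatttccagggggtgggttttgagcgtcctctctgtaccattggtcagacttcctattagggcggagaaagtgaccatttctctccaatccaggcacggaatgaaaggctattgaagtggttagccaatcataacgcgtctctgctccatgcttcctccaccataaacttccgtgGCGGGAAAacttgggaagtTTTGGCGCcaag
These letters were in 11 of 34 replication genes with a window (32.4%), in 1.80% of all genes with a window and in 1.56% of all windows. The element was chosen as one of S phase genes, so a high share in this list was likely in advance. Mcm7 stood at 25.3 and 15.1 CPM in KO amino against 30.5 and 49.8 CPM in KO hydroxy, and Mcm3 at 27.04 and 20.9 against 31.9 and 63.5 CPM, both helicase subunits and both highest in KO hydroxy 2.

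The machinery of protein synthesis stood higher beyond the synthetases. All 50 ribosome assembly genes of the nucleolus had a change above 0, 40 with p under 0.05 (9.73% of all genes) and 49 without overlap (28.8% of all genes), and the median was 0.86 (0.76 with the length trend removed). In WT 38 of the 50 were above 0 with a median of 0.10, and in HET 31 with a median of 0.08. Without KO hydroxy 2 the count of 40 was 4 and the median 0.60, and without KO amino 2 they were 5 and 0.68. Nhp2, a protein of the small nucleolar particles that modify ribosomal RNA, stood at 33.6 and 28.3 CPM in KO amino against 60.4 and 119 CPM in KO hydroxy (log2 change 1.43, SE 0.36). Nop56 of the methylating particle stood at 15.9 and 12.5 against 23.8 and 36.9 CPM, and Nop2, a ribosomal RNA methyltransferase, at 22.4 and 21.9 against 35.9 and 49.3 CPM. All 31 genes of mitochondrial translation were without overlap and higher (28.8% of all genes), with a median of 0.72. In HET 30 of the 31 were above 0 with a median of 0.38, and in WT 26 with a median of 0.11. Mrps30, a protein of the mitochondrial ribosome, stood at 26.7 and 25.3 against 41.9 and 53.3 CPM. Their median transcript was 1316 bases, and their median change was 0.43 with the length trend removed. Of the 31, 24 had p under 0.05 (9.73% of all genes), and without KO hydroxy 2 their median change was 0.49. The mRNAs of cytosolic ribosomal proteins, with a median of 975 bases, had a median of 0.75 over 59 members and of 0.38 with the trend removed, and many have processed pseudogenes that could take reads. In WT 54 of the 59 were above 0 with a median of 0.27, and in HET 42 with a median of 0.17. Without KO hydroxy 2 their median was 0.36, and the number with p under 0.05 went from 20 to 0, while it was 1 without KO amino 2. Nuclear genes of the respiratory chain did not keep their direction: 46 of 48 were above 0 with a median of 0.29, and with the trend removed 19 were, with a median of -0.08. In HET 46 of the 48 were above 0 with a median of 0.48, and in WT 14 with a median of -0.03.

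**Figure D4:**
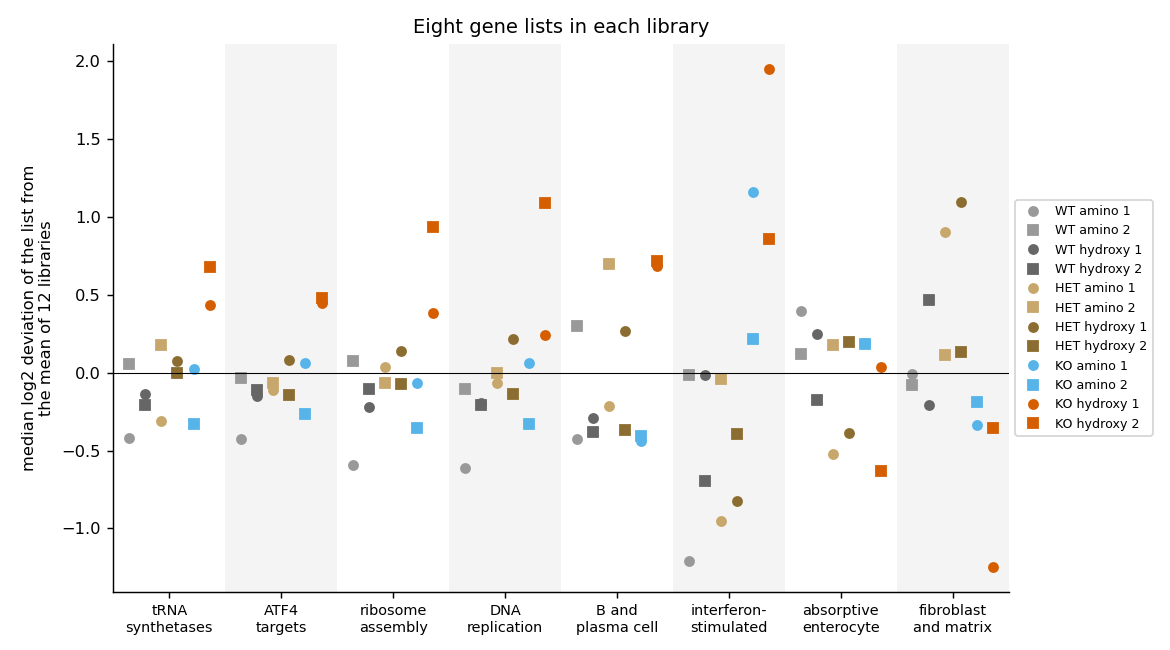
Median log2 deviation from the mean of 12 libraries (vertical axis) for 8 gene lists (horizontal axis), a point per library coloured by group. For tRNA synthetases and ATF4 targets both KO hydroxy points lie above the other 10, for replication KO hydroxy 2 stands at 1.09 and KO hydroxy 1 at 0.24, and for fibroblast genes KO hydroxy 1 is lowest.

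Genes of B cells had the highest median of the lists with at least 10 members tested. Of 21 tested, 18 were without overlap and higher (28.8% of all genes), 12 had p under 0.05 (9.73% of all genes), and the median was 0.99 (0.89 with the length trend removed). The count of 12 was 5 without KO amino 1 or KO hydroxy 1. Cd79b, a signalling chain of the B cell receptor, stood at 3.13 and 2.66 CPM in KO amino against 9.84 and 11.9 CPM in KO hydroxy (log2 change 1.60, SE 0.34), and its partner Cd79a at 2.92 and 3.904 against 12.4 and 12.8 CPM. Fcer2a, the low-affinity IgE receptor of follicular B cells, stood at 0.0585 and 0.0929 CPM in KO amino against 3.33 and 2.65 CPM in KO hydroxy. Jchain, the joining chain of the IgA that plasma cells secrete, was at 538 and 560.4 CPM in KO amino against 630.0 and 592 CPM in KO hydroxy, and Mzb1, a chaperone of antibody secretion, at 9.21 and 7.62 against 11.8 and 8.51 CPM. The follicle list, which shares 4 members with the B cell list, had 11 of 16 without overlap and higher (28.8% of all genes). Cxcl13, the chemokine that draws B cells into follicles, stood at 0.994 and 2.57 against 5.398 and 7.17 CPM. The 8 WT and HET libraries reached levels similar to hydroxy for some of these genes, such as 4.07 to 13.4 CPM for Cd79a and 0.126 to 2.24 CPM for Fcer2a. In 4 of the 21 genes the hydroxy pair exceeded the other 10 libraries, near the 13.8% of all genes. Of the 12 class II presentation genes, 5 were above 0 and 7 below, with a median of -0.34 (-0.61 with the length trend removed). Among the 5, H2-Ob and H2-Oa form the peptide editor found mainly in B cells. H2-Ob stood at 1.34 and 1.24 CPM in KO amino against 6.63 and 6.64 CPM in KO hydroxy, and H2-Oa at 1.29 and 0.651 against 2.34 and 3.62 CPM. Cd74, the invariant chain, stood at 1671 and 426 against 993 and 387 CPM, with the sides overlapping.

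Interferon-stimulated genes had a wide spread inside each pair. Of 35, 32 were above 0, 8 had p under 0.05 (9.73% of all genes), 14 were higher in both hydroxy libraries (28.8% of all genes), and the median was 0.67 (0.59 with the length trend removed). In WT 26 of the 35 were above 0 with a median of 0.19, and in HET 7 with a median of -0.21. Oas2, an antiviral synthetase, stood at 22.1 and 7.75 CPM in KO amino against 57.1 and 33.1 CPM in KO hydroxy, where the 8 WT and HET libraries lay at 0.411 to 2.66 CPM (log2 change 1.65, SE 0.56). Ifit2, which binds viral RNA, stood at 14.9 and 8.98 CPM in KO amino against 114 and 17.8 CPM in KO hydroxy, so that KO hydroxy 2 was close to KO amino 1. Isg15, a ubiquitin-like modifier, stood at 116 and 58.9 against 399 and 149.7 CPM. The median deviation of the list was 1.15 and 0.21 in amino against 1.95 and 0.86 in hydroxy, and KO amino 1 was above KO hydroxy 2. The list's median was 0.21 without KO hydroxy 1, 0.28 without KO amino 2, 1.17 without KO amino 1 and 1.25 without KO hydroxy 2. The count of 8 was 1 without KO hydroxy 1 and without KO amino 2, 13 without either of the others and 3 with the length trend removed. Oas and Gbp genes have close paralogs whose reads could be shared.

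Fibroblast and matrix genes stood lower over most of the list, most of all in KO hydroxy 1. Of 35, 32 were below 0, 19 were without overlap and lower (16.8% of all genes), 4 had p under 0.05 lower (3.99% of all genes), and the median was -0.60 (-0.44 with the length trend removed, when 7 had such a p). Without KO hydroxy 1 the median was -0.20, and without KO hydroxy 2 it was -0.97 with 12 past that p. Col3a1, a fibrillar collagen, stood at 106 and 117 CPM in KO amino against 52.3 and 81.2 CPM in KO hydroxy, and Col1a1 at 44.5 and 51.99 against 19.3 and 29.4 CPM. Fbln1, a glycoprotein of the matrix, stood at 201 and 290.4 against 147 and 123 CPM, and Pdgfrb, a receptor of mesenchymal cells, at 22.4 and 19.4 against 10.9 and 14.3 CPM. The summed level was 1309 and 1567 CPM in amino and 733 and 1222 CPM in hydroxy. Smooth muscle genes did not order by complex, at 3409.6 and 6362 against 2405 and 6266 CPM summed over 22 genes, with Myh11, the smooth muscle myosin, at 397 and 895 against 209 and 658 CPM. The summed muscle level thus differed more within each pair than between the pairs.

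In the fasting and insulin list the median was -0.18, and 11 of 30 were above 0. Of the 30, 6 had p under 0.05 lower and 1 higher, against 3.99% and 9.73% of all genes, and with the length trend removed 3 and 1 had. Ppargc1a, the coactivator of mitochondrial genes, stood at 68.97 and 67.2 CPM in KO amino against 36.9 and 34.2 CPM in KO hydroxy (log2 change -0.92, SE 0.19, -0.73 with the length trend removed). Foxo3, a transcription factor held back by insulin, stood at 16.2 and 21.2 CPM in KO amino against 7.56 and 7.29 CPM in KO hydroxy (log2 change -1.21, SE 0.33), and Irs2, an adaptor of the insulin receptor, at 27.5 and 26.4 against 10.1 and 12.6 CPM. The glucocorticoid target Fkbp5 stood higher, at 10.3 and 10.3 CPM in KO amino against 19.97 and 31.5 CPM in KO hydroxy (log2 change 1.21, SE 0.41). The immediate early list had a median of -0.04, with Jun at 91.3 and 80.6 against 40.1 and 48.7 CPM and Fosl2 at 167 and 121 against 84.6 and 76.1 CPM, both among its smallest p.

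Zinc genes were not ordered by complex as a set. The 12 importers of the ZIP family had a median of 0.10 and the 8 exporters of the ZnT family one of 0.04, with 1 gene of p under 0.05 among the 20. This was Slc39a7, which releases zinc from the endoplasmic reticulum, at 110.3 and 107 CPM in KO amino against 138 and 172 CPM in KO hydroxy (log2 change 0.50, SE 0.17). Its change was 0.43 in HET and 0.01 in WT. In KO it was 0.32 with the length trend removed (unadjusted p = 0.123 by limma). Mt1, the zinc-binding metallothionein induced by zinc through Mtf1, stood at 10.7 and 11.2 CPM in KO amino against 15.4 and 76.8 CPM in KO hydroxy (log2 change 1.58, SE 0.64, adjusted p = 0.335), a change of 1.19 with the length trend removed. Mt2 stood at 1.49 and 1.02 CPM in KO amino against 2.76 and 13.1 CPM in KO hydroxy (log2 change 1.70, SE 0.64, and 1.27 with the trend removed). Both metallothioneins were high only in KO hydroxy 2, whereas KO hydroxy 1 was near the amino pair and under the 22.5 to 68.7 CPM that the 8 others spanned for Mt1. Without KO hydroxy 2 the change of Mt1 was 0.45. Mtf1 stood at 30.3 and 25.7 against 28.004 and 18.1 CPM.

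The lists with at least 10 members tested whose medians are not given above had medians between -0.25 and 0.42. Exceptions were the circadian clock, smooth muscle and upper gut lists, each at -0.32, and the follicle list at 0.78. For the blood cell, Paneth cell, ZIP importer, mTORC1 sensor, pancreas and adipose lists the median changed sign with the length trend removed, as that of the respiratory chain did. Of the 32 lists outside the 12 followed most closely, 19 changed the sign of their median without 1 or another of the KO libraries, such as the macrophage list at 0.07 without KO hydroxy 1. Heat shock genes kept most of theirs, 0.42 and 0.34, with Hspd1, the mitochondrial chaperonin, at 116 and 85.8 against 131 and 243 CPM. T cell markers had a median of -0.15 and macrophage markers one of -0.19, with Csf1r, the macrophage growth factor receptor, at 38.9 and 41.1 against 16.2 and 25.9 CPM. These medians were -0.37 and -0.34 with the length trend removed.

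**Figure D5:**
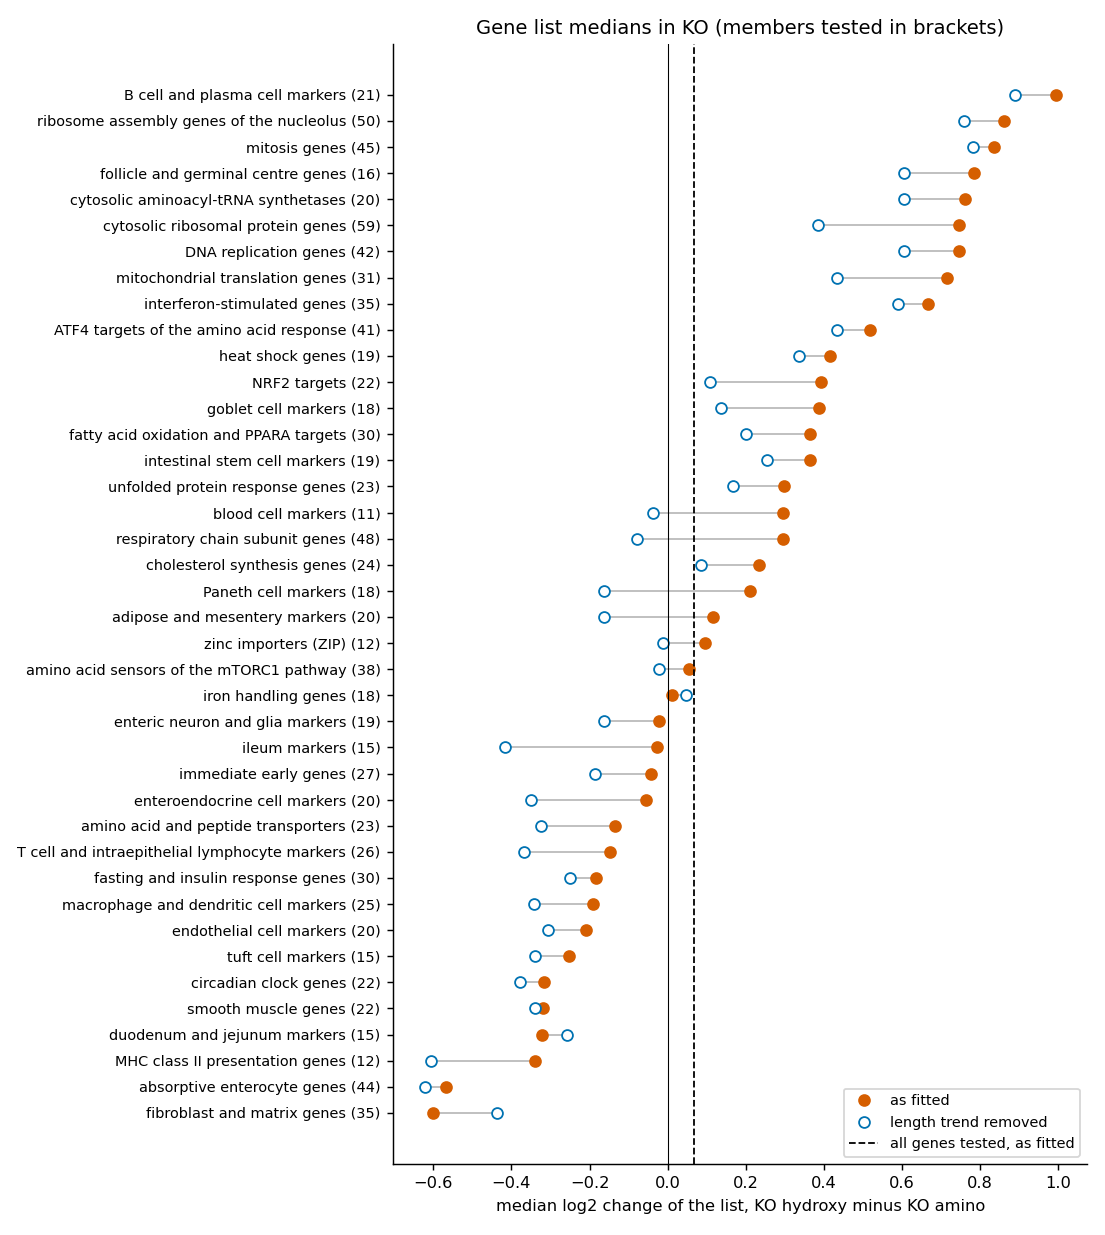
Median log2 change, KO hydroxy minus KO amino (horizontal axis), of each gene list with at least 10 members tested (vertical axis), as fitted (filled) and with the length trend of each library removed (open), with a dashed line at the 0.07 of all genes. B cell, ribosome assembly, mitosis, replication and synthetase lists stay well to the right under both, and enterocyte and fibroblast lists to the left.

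Whether the effect of the complex in KO differed from that in the other genotypes was tested by contrasts of contrasts in the same limma fit. Against WT, 0 genes passed an adjusted p of 0.05, the smallest was 0.992, and 530 genes (3.79%) had an unadjusted p under 0.05. Against HET, 0 passed, the smallest adjusted p was 0.9998, and 492 genes (3.51%) had an unadjusted p under 0.05. A difference between genotypes in the response to the complex was therefore not detectable at this number of libraries, and zinc level changes together with genotype in both contrasts. As a description, the KO hydroxy pair held the 2 highest of the 12 values in 1929 genes (13.8%) and the 2 lowest in 1000 (7.14%). The KO amino pair did so in 64 and 100 genes. The HET amino pair, whose mice were 363 and 141 days old, held the highest values in 494 genes and the lowest in 942. Of the 4 KO libraries, the hydroxy pair was thus far more often at the extremes of the series than the amino pair.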

How the data were processed

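RNA-seq of whole small intestine from 12 mice was deposited by the authors as CPM, a gene's reads relative to its library's total, for 17112 genes. A constant of 0.0001 in every value was subtracted here. Partek, TopHat2 and mm10 appear in the submitters' processing notes, and neither versions nor the counting tool, annotation, strand setting or filters are given in the sources used here. Genes that overlap or have near-identical copies are therefore uncertain. Listed genes held 62.0% to 71.8% of a library of 26.0 to 38.7 M reads, depths read from the steps between low values. These steps gave whole numbers within 0.05 for 93.6% to 95.2% of low values, so reads were not recovered and a test for counts was left out. The table holds 0 mitochondrial genes, and 21 symbols turned into dates were restored.

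The 14001 genes that reached 1 CPM in 2 or more libraries were tested. Fold changes refer to log2(CPM + 1) and are too small for low genes. Means of 6 groups over 12 libraries were fitted in limma 3.58.1 (R 4.3.3, eBayes trend, two-sided tests, 6 residual degrees of freedom), with Benjamini-Hochberg adjustment over all genes in each of 5 comparisons, at a threshold of 0.05. The p-values rest on the spread between these mice. Groups came from the labels, which give no shared litter, batch or day. Named genes were Gatsl2, Lrp12, Psat1, Slc39a4, Mt1, Mt2 and Xist, then 12 each way by smallest p among genes whose mean reached the median of all genes and whose sides did not overlap, leaving out predicted, pseudogene and sex-linked genes, and up to 5 members of a list by smallest p. Genes outside the rule (among them Asns, Slc7a11, Atf4, Phgdh, Psph, Slc3a2, Trib3, Sesn2, Gatsl3, Mcm3, Apoa1, Mttp, Jchain, Mzb1, Isg15, Cd74, Malat1 and Neat1) were chosen after their values were seen. The comparison, the genes given with it and the 44 gene lists were chosen with earlier results of these data known. A few genes are not reported here by name. Lists have no test and are described by counts and medians beside those of all genes.

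Transcript length is that of the longest GENCODE M21 basic transcript, found for 13936 genes (99.5%). The length trend was removed per library with a lowess curve of span 0.3 on log10 length, an alternative chosen after seeing the data. The fit and this step were tested on simulated data. Other alternatives changed the pseudocount, the filter, the scaling, the library weights, the libraries fitted or age as a covariate, or left out 1 library at a time. Promoter windows are those of RefSeq.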

Additional observations from a re-analysis of the deposited data

How the results depend on the processing

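The gene counts, the list medians and 28 named genes were recomputed under 22 alternatives, 12 of them leaving out 1 library, while single members of lists, length classes and motif shares were not. The 28 genes kept their direction and their side of the threshold in all 615 values, but their sides do not overlap, most by the rule that chose them, so leaving out a library could not turn them. The medians of the 12 lists followed most closely changed sign in 0 of 264 values, and 23 of the other 32 lists changed sign under at least 1 alternative. The number of genes past an adjusted p of 0.05 in KO was 0 to 4 without 1 library. Without KO amino 1 the 1 gene was Cyp1a1 (0.117 and 19.8 against 0 and 0 CPM), and without KO amino 2 the 4 were Eif2s3y, Uty, Ddx3y and Kdm5d, all Y-linked and at 0 in KO amino 1. With no filter on low values 2 passed, among them Gm5868 (0.672 and 0.496 against 2.31 and 2.56 CPM), and with the 4 KO libraries alone 1 did, Malat1 (adjusted p = 0.0359). The difference of the effect in KO from that in WT and in HET had 1 gene each with no filter, 0 to 2 and 0 to 3 without 1 library, and HET alone 0 to 6. Median log2 changes over leaving out 1 library ran from 0.38 to 0.71 for ATF4 targets, 0.54 to 0.85 for tRNA synthetases, -0.42 to -0.14 for carriers, -1.01 to -0.15 for enterocyte genes and 0.92 to 1.10 for B cell genes. The carriers' median was -0.26 with quantile normalization and -0.32 with the length trend removed, and that of mitochondrial translation was then 0.43. The B cell median was 1.55 with a pseudocount of 0.1, 0.44 with 5, 0.57 with a mean of at least 5 CPM, 1.04 with age as a covariate and 0.89 with the length trend removed. The pseudocount and the filter act on genes of few reads; the cause of the other moves was not tested. No paired analysis was possible because the labels give animal numbers and no replicate number shared between groups. Depth limits the B cell genes, many of which lie near 1 CPM.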

Other observations

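Of the 4 KO libraries, KO hydroxy 2 held the highest level of the hemoglobin genes of red blood cells, with Hba-a1 at 3.16 and 4.93 against 3.41 and 9.902 CPM and Hbb-bs at 4.17 and 3.72 against 4.48 and 8.92 CPM. The 11 blood cell markers had a median change of 0.30.

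Cela1, a protease known from the pancreas, stood at 7.31 and 4.93 CPM in KO amino against 12.7 and 24.8 CPM in KO hydroxy, where the 8 other libraries lay at 3.404 to 6.08 CPM (log2 change 1.42, SE 0.37). Of the 5 pancreas markers tested, 4 were higher in both hydroxy libraries, Cela1 among them, against 28.8% of all genes. The exception was Clps, colipase, at 42.2 and 25.7 against 28.998 and 32.3 CPM. Rnase1 stood at 8.16 and 8.58 against 9.36 and 9.38 CPM, and the summed level of the 5 was 1765 and 1078 CPM in KO amino against 2264 and 1924 CPM in KO hydroxy. With the length trend removed the median of the list was -0.06, with 1 member higher and 2 lower in both hydroxy libraries.

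Tmprss15, the enteropeptidase of the duodenum, was at 0 and 27.1 CPM in KO amino against 0.6297 and 0.281 CPM in KO hydroxy. Cyp1a1, an enzyme induced through the aryl hydrocarbon receptor, was at 0.117 and 19.8 against 0 and 0 CPM. Both were high in KO amino 2 alone. Reg3g, an antimicrobial lectin, differed inside each pair, at 1199 and 315 CPM in KO amino against 532 and 69.1 CPM in KO hydroxy.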
